A study of Homo sapiens with 6 samples.

Results

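Colony-stimulating factors and a set of interleukins were followed at the RNA level in melanoma cells with and without knockdown of NFKBIZ, the gene for the nuclear co-regulator IκBζ. The 10 genes were chosen by name: CSF1, CSF2, CSF3, IL34, IL7, IL15, IL24, IL32, IL23A and TSLP. All 10 were found among the 47432 genes listed in each library. LOX-IMVI is an established human melanoma line, and the libraries hold total RNA from 3 samples of cells transduced with the pLKO.1 control vector (shCtrl) and 3 of cells transduced with a pLKO.1 hairpin against NFKBIZ (shNFKBIZ). Both groups were lentivirally transduced, selected with puromycin and grown in RPMI-1640 with fetal calf serum, with no other agent named for these samples. The knockdown arm rests on a single hairpin in a selected pool, so that effects of that hairpin and of the loss of IκBζ cannot be told apart.

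Colony-stimulating factors are secreted proteins that sustain myeloid cells. CSF1 (M-CSF) and IL34 both signal through the receptor tyrosine kinase CSF1R, CSF2 (GM-CSF) through CSF2RA and CSF2RB, and CSF3 (G-CSF), the growth factor of neutrophils, through CSF3R. IL7 and IL15 support lymphocytes through receptors that contain the common gamma chain IL2RG, TSLP pairs IL7R with CRLF2, IL24 belongs to the IL10 family and acts through IL20RB with IL20RA or IL22RA1, IL23A is the specific subunit of IL23, and IL32 is a proinflammatory cytokine without homology to the other members. Most of these receptors pass the signal to JAK kinases and STAT factors, whereas IκBζ itself works in the nucleus together with NF-κB subunits.

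CSF3 and IL24 were the most abundant of the 10 transcripts in control cells, and both fell in knockdown cells, IL24 by 13.8-fold and CSF3 by 3.13-fold. IL32 rose by 2.01-fold. IL15, present at a few reads only, was called at 2.42-fold lower. It was kept for testing by its control libraries alone, so that its call is no support for that direction. IL7 was 1.55-fold lower, short of the fold limit, and CSF1 gave no call. CSF2, IL23A and IL34 had too few reads to be fitted, and TSLP had no exon read in any of the 6 libraries. A gene was called when edgeR's quasi-likelihood test gave an adjusted P of at most 0.05 over all genes tested and the fold change was at least 2.

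The members were tested on total exon reads, which came to between 22264473 and 24624839 per library. NFKBIZ itself had 41.4, 42.9 and 49.2 TPM (reads per transcript length, on a common library scale) in the shCtrl libraries and 13.7, 14.1 and 13.3 TPM in the shNFKBIZ libraries, a log2 fold change of -1.78 with an SE of 0.0581 and an adjusted P of 7.2e-17 in edgeR. Of 8 melanocyte lineage markers, SOX10 and MLANA had no exon read, TYR had 1, and PAX3 was the most abundant with 17.6 ± 0.317 TPM (SD, n = 3) in shCtrl and 9.39 ± 0.655 TPM in shNFKBIZ. MITF, the other tested marker of this list, stood at 3.21 ± 0.373 and 2 ± 0.241 TPM (log2 fold change -0.77), short of the fold limit. PMEL, TYRP1 and DCT had 20, 8 and 5 summed exon reads in shCtrl. Of this list PAX3 and MITF were thus expressed, while SOX10 was absent and the pigment genes were absent or near the floor. The melanoma identity is taken from the label, and most markers of this list do not back it. Of 5 markers of dedifferentiated melanoma 4 were tested, and the other, NGFR, had 4 and 2 summed exon reads. Of these markers AXL stood at 407 ± 24.2 and 486 ± 3.78 TPM and EGFR at 39.6 ± 1.72 and 66.2 ± 1.76 TPM, both short of the fold limit. WNT5A fell from 134 ± 4.35 to 61.9 ± 1.54 TPM (log2 fold change -1.2) and SOX9 rose from 21.6 ± 0.729 to 55.1 ± 2.03 TPM (log2 fold change 1.27), so that the markers did not move one way. Of 8 immune cell markers, 5 had no exon read (CD3E, CD8A, MS4A1, FCGR3A and NKG7), and the summed level of all 8 was 0.0868 to 0.255 CPM (counts per library total, on a common scale) in shCtrl and 0.0429 to 0.13 in shNFKBIZ. Endothelial and epithelial markers summed to 0.364 to 0.679 CPM in shCtrl and 0.944 to 1.2 in shNFKBIZ, with KRT14 at 24 and 63 summed reads and past the threshold. KRT14 passed the filter on low reads through its knockdown libraries alone (20, 24 and 19 reads, against 10, 10 and 4). Its test favours a higher value in knockdown cells, and the call is no support for that direction. Whether the shift in the summed markers has a part in the results below was not tested.

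With a limit of 1 TPM for the group mean, 6 of the 10 genes were expressed in at least 1 group: CSF3, IL24, IL7, IL32, CSF1 and IL34, the last in knockdown cells only by this limit. In shCtrl the order of the mean levels was CSF3 (260 TPM), IL24 (63.4), IL7 (6.62), IL32 (6.25) and CSF1 (2.58), followed by CSF2 (0.634), IL23A (0.412), IL15 (0.318), IL34 (0.147) and TSLP. The libraries of IL7 and IL32 overlapped, as did each neighbouring pair from CSF2 down to TSLP, while the steps between the other genes were larger than the spread. In shNFKBIZ the order became CSF3 (87.6 TPM), IL32 (13.2), IL24 (4.86), IL7 (4.54), CSF1 (3), IL34 (1.08), IL23A (0.579), IL15 (0.138), CSF2 (0.0736) and TSLP, where IL34 and IL23A overlapped, as did IL15 with CSF2 and CSF2 with TSLP, and IL24 and IL7 were separated by a margin between 4.61 and 4.66 TPM.

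**Figure D1:**
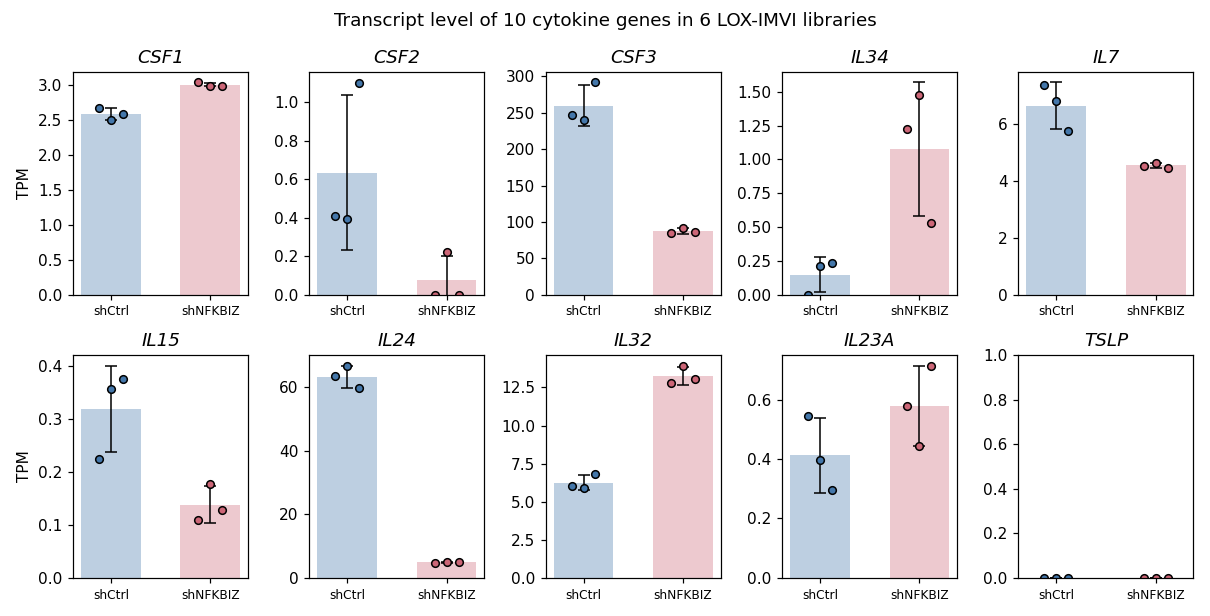
Level of each of the 10 genes in TPM on the vertical axis (linear, from 0, a separate scale for each gene), with 1 point per library, bars at the group mean and error bars of 1 SD (n = 3, cut at 0). The shNFKBIZ points of CSF3 and IL24 lie far under the shCtrl points, those of IL32 lie above, and TSLP is at 0 in all 6 libraries.

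Of the 10 members, 6 passed the filter on low reads. IL15 did so through its control libraries alone, so that its call, counted here, is no support for a lower level. Past the threshold, 3 were lower (IL24, CSF3 and IL15), where 5.12% of all 13843 genes tested were called lower, and 1 was higher (IL32), where 3.84% were called higher. In either direction that makes 4 members beside 8.96% of all genes. By adjusted P alone, 5 members were called, 4 lower and 1 higher, counts to be read beside 65.3% of all genes tested, 32.8% lower and 32.5% higher, so that adjusted P without the fold limit separates few genes in this comparison. The median log2 fold change of the 6 tested members was -0.95, and that of all tested genes was 0.0043. CSF2, CSF3 and IL15 stand in the study's list of IκBζ-regulated genes, which was chosen in part on these libraries, so their direction is not independent evidence. In bulk RNA, fewer cells making a transcript and less of it per cell cannot be told apart.

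Promoter sequence from RefSeq (GRCh38.p14) was at hand for 5 of the 10 genes: IL24, CSF2, IL32, IL23A and TSLP. Windows of 250 bases before the transcription start were searched on both strands for the 10-base NF-κB motif, an AP-1 motif (TGANTCA), a STAT motif (TTCNNNGAA) and a C/EBP motif (TTGCNNAA), the factor families known to act at cytokine promoters. Among 35116 RefSeq windows of that length, the NF-κB motif was found in 5.21%, the AP-1 motif in 6.57%, the STAT motif in 6.57% and the C/EBP motif in 9.05%. The windows of IL24 and CSF2 are shown because these genes had the lowest knockdown-to-control ratios among the members. The site of IL32 is shown because it was the tested member called higher. IL34, whose ratio was higher still, had no promoter sequence at hand. Capitals mark a motif match, and each is printed 5′ to 3′ on the coding (plus) strand, that of IL24 from chr1:206897193-206897442, that of CSF2 from chr5:132073539-132073788 and that of IL32 from chr16:3065295-3065324.
IL24: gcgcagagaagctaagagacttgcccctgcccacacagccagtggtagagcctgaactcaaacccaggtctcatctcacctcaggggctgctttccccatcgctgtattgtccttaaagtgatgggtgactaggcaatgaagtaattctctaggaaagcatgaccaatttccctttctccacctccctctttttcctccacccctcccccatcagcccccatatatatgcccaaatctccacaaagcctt
CSF2: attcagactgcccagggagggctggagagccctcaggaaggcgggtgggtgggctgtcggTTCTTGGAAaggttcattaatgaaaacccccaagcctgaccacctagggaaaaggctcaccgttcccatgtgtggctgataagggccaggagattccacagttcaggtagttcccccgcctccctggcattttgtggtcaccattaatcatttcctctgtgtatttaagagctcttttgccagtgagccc
IL32: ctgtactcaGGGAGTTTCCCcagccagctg
The IL24 window held none of the 4 motifs in these spellings. In CSF2 the STAT motif lay 190 to 182 bases before the start. In IL32 the NF-κB motif was read on both strands in overlapping positions, from 99 to 89 bases before the start of the RefSeq transcript, inside a stretch that the files' annotation already counts to the gene, while the other of its 2 RefSeq windows held none of the motifs. The IL23A window carried an NF-κB match 95 to 86 bases and an AP-1 match 77 to 71 bases before the start, and 1 of 3 TSLP windows carried an NF-κB match 191 to 182 bases before it. No C/EBP match was found in any of these windows. A match describes the letters only, and these libraries hold no measurement of binding.

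CSF3 (chromosome 17, 40015361 to 40017813, plus strand) was counted at 3408, 3435 and 3735 exon reads in the control libraries and 1107, 1174 and 1132 in the knockdown libraries. On the length-scaled measure these were 247, 241 and 292 TPM against 85.1, 92 and 85.7 TPM. The lowest control library was thus more than 2 times the highest knockdown library, and the log2 fold change was -1.65 with an SE of 0.0558 and an adjusted P of 2.06e-13 in edgeR. CSF3 ranked 209 from the lowest log2 fold change among the tested genes and remained the most abundant of the 10 transcripts in knockdown cells. Its neighbours had small differences, PSMD3 (a proteasome subunit) with a log2 fold change of -0.14 and MED24 (a Mediator subunit, 1284 bases beyond its end on the other strand) of 0.08.

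CSF1 (chromosome 1, 109910242 to 109930992) was counted at 87, 84 and 78 exon reads in the control libraries and 93, 90 and 93 in the knockdown libraries. In TPM the libraries stood at 2.67, 2.5 and 2.58 against 3.03, 2.99 and 2.98, so that all 3 knockdown libraries were above the controls by a small margin. The log2 fold change was 0.13 with an SE of 0.132 and an adjusted P of 0.381 in edgeR. Scaled to library totals, the ratio of summed reads had an exact 95% interval from 0.981 to 1.39. With library size as the only scaling, the log2 fold change of CSF1 was 0.22 and the median of all genes 0.0937. Part of the margin is thus shared by genes at large. CSF1 was therefore expressed in both groups at a low level, and a difference inside that interval was not detectable at this depth.

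IL34, the other ligand of CSF1R, was counted at 0, 3 and 3 exon reads in the control libraries and 16, 19 and 7 in the knockdown libraries. The ranges did not overlap, and the ratio of summed reads (6 and 42, each scaled to its libraries' total) was 7.38 with an exact 95% interval of 3.12 to 21.2 that covers counting error only. Reads across splice junctions were 0, 2 and 0 in shCtrl and 11, 4 and 3 in shNFKBIZ, so that spliced IL34 RNA was seen in all 3 knockdown libraries. Introns made up 73.9% of its gene reads in shCtrl and 35.4% in shNFKBIZ, with 17 and 23 summed intron reads. MTSS2, a membrane-binding actin regulator whose gene lies 522 bases beyond IL34 on the opposite strand, rose beside it from 1477 to 3099 summed reads (log2 fold change 1.06, SE 0.0549). Strand was not used in counting, and what MTSS2 RNA adds to the exon reads of IL34 was not tested. On the other side, SF3B3 lies 2225 bases before IL34 and had a log2 fold change of -0.09. The filter removed IL34 from the fit, and without the filter its log2 fold change was 2.71 with an SE of 0.562 and an adjusted P of 6.76e-06 in edgeR. That fit gave far smaller values for well-counted genes, as for CSF3 with 3.45e-293 against 2.06e-13 with the filter. The P of IL34 is therefore not comparable with those of the filtered fit.

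CSF2 (chromosome 5, 132073789 to 132076170) was counted at 2, 2 and 5 exon reads in the control libraries and 0, 1 and 0 in the knockdown libraries. All control libraries were above all knockdown libraries, at a total of 9 reads against 1. The ratio was 0.117 with an exact 95% interval of 0.00267 to 0.845, and without the filter the log2 fold change of -2.79 (SE 1.23) had an adjusted P of 0.0616 in edgeR. GM-CSF RNA was thus close to the detection limit in LOX-IMVI cells even before the knockdown.

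IL24 (chromosome 1, 206897443 to 206904139, plus strand), whose product is studied for its growth-inhibiting action on melanoma cells, showed the largest difference of the tested members. It was counted at 784, 848 and 682 exon reads in the control libraries and 54, 56 and 59 in the knockdown libraries, or 63.7, 66.7 and 59.8 TPM against 4.66, 4.92 and 5.01 TPM. The groups were far apart and each was tight, with SDs of 3.47 and 0.183 TPM. The log2 fold change was -3.78 with an SE of 0.0929 and an adjusted P of 5.67e-19 in edgeR, which ranked 13 from the lowest among 13843 genes. The step was present in spliced reads as well, with 245, 246 and 185 junction reads in shCtrl and 19, 19 and 18 in shNFKBIZ. FCMR, which overlaps IL24 on the opposite strand, had no exon read, and the nearest tested genes were higher, with log2 fold changes of 0.16 for the kinase gene MAPKAPK2 and 0.6 for PFKFB2, which makes a regulator of glycolysis.

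IL7, the survival factor of T and B cell precursors, had 155, 148 and 112 exon reads in shCtrl and 90 in each of the 3 shNFKBIZ libraries. Its levels were 7.35, 6.79 and 5.73 TPM against 4.53, 4.61 and 4.46 TPM, and the groups did not overlap. The log2 fold change of -0.63, with an SE of 0.129 and an adjusted P of 0.000196 in edgeR, was past the limit of the test but not past the fold limit. Genes on the other strand overlap it: ZC2HC1A, with a log2 fold change of 0.17, and an unnamed lncRNA, which went from 97 to 26 summed reads (log2 fold change -1.9, SE 0.306). Reads from IL7 and these genes cannot be told apart without strand, although spliced reads of IL7 were also fewer, 27, 36 and 26 against 18, 23 and 20.

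IL15, which sustains natural killer and memory T cells, was counted at 11, 18 and 17 exon reads in the control libraries and 5, 8 and 6 in the knockdown libraries. The groups did not overlap, yet the mean level was only 0.318 ± 0.0815 and 0.138 ± 0.0351 TPM (SD, n = 3). The log2 fold change was -1.27 with an SE of 0.37 and an adjusted P of 0.00471 in edgeR, and DESeq2 gave -1.29 with an adjusted P of 0.0542, so the call depends on the tool. IL15 was also tested only because its control libraries passed the filter on low reads, so the test favours a lower value in knockdown cells and its call is no support for that direction. The ratio of summed reads, 46 to 19, was 0.435 with an exact 95% interval of 0.241 to 0.758.

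TSLP, the epithelial alarmin that shares IL7R, had no exon read in any library, which allows up to 3 reads in each. IL23A was counted at 4, 3 and 2 exon reads in the control libraries and 4, 3 and 5 in the knockdown libraries, and the groups overlapped. The ratio of its summed reads was 1.41 with an exact 95% interval of 0.543 to 3.78, which leaves both a lower and a more than 3-fold higher level possible at this depth.

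IL32 (chromosome 16, 3065297 to 3082192) was the tested member that rose. It was counted at 120, 122 and 126 exon reads in the control libraries and 240, 257 and 249 in the knockdown libraries, or 6.01, 5.92 and 6.81 TPM against 12.8, 13.9 and 13 TPM. Every knockdown library was well above every control, and the log2 fold change was 1 with an SE of 0.0966 and an adjusted P of 7.05e-09 in edgeR. The fold lies at the limit of 2, and it was under it, at log2 values of 0.97 to 0.98, without shCtrl library 1, shCtrl library 2 or shNFKBIZ library 2, with 1.51e-19 to 3.99e-07 as the range of adjusted P over all settings. Spliced reads numbered 37, 33 and 33 in shCtrl and 72, 90 and 73 in shNFKBIZ, again without overlap. The neighbouring genes had log2 fold changes of 0.23 (THOC6, an mRNA export factor subunit) and -0.01 (ZNF205).

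**Figure D2:**
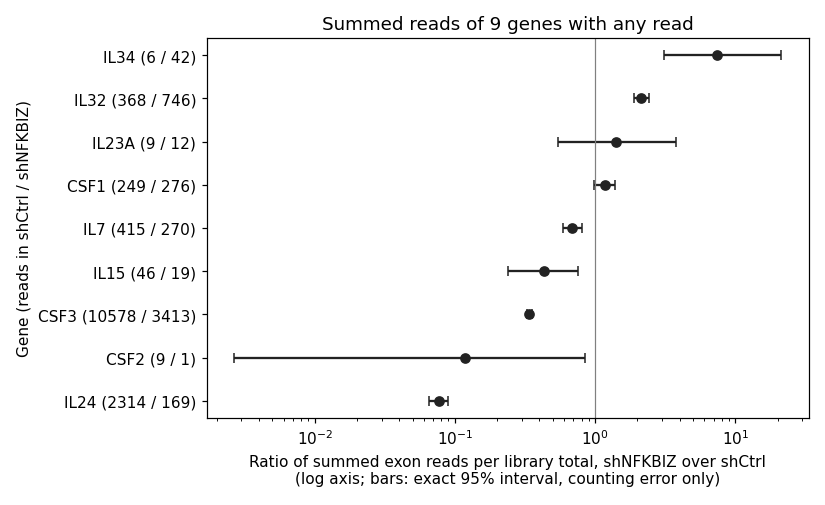
Ratio of summed exon reads, scaled to library totals, in shNFKBIZ over shCtrl for the 9 genes with any exon read (horizontal log axis, exact 95% intervals for counting error only), with the summed reads of both groups beside each name. The intervals of IL24, CSF2, CSF3, IL15 and IL7 lie under 1, those of IL32 and IL34 above 1, and those of CSF1 and IL23A include 1.

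Reads in introns come largely from unspliced RNA and give a readout that the exon counts do not hold. Summed over genes they came to 1812526 to 1975528 per library, and 4 members had enough of them to be tested: IL24, CSF3, IL7 and IL15. Of these, 3 were past the threshold, all lower, beside 6.6% of 12119 genes in either direction. IL24 had 115, 109 and 105 intron reads in shCtrl and 10, 12 and 12 in shNFKBIZ, and its log2 fold change was -3.35 with an SE of 0.196 and an adjusted P of 1.09e-16 in edgeR. IL7 had 129, 161 and 133 against 74, 72 and 66 (log2 difference -1.08, SE 0.126, adjusted P = 6.82e-09), and the overlapping genes named above bear on this value too. IL15 had 10, 14 and 11 against 2, 4 and 7 (log2 difference -1.49, SE 0.453, adjusted P = 0.00843), a call that was lost without shNFKBIZ library 1 and with DESeq2. Here too IL15 passed the filter through its control libraries alone. Intron reads of CSF3 numbered 32, 50 and 40 in shCtrl and 22, 33 and 34 in shNFKBIZ, so that the groups overlapped, and the log2 difference of -0.54 (SE 0.215, adjusted P = 0.043) stayed short of the fold limit.

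The difference between the exon and the intron change was tested in a joint model of both kinds of reads. At an adjusted P of at most 0.05, 2 of the 4 members were called, beside 28.9% of 11025 genes. For CSF3 the exon change was lower than the intron change by -1.09 on the log2 scale with an SE of 0.217 and an adjusted P of 3.23e-05 in edgeR, and introns made up 1.14% of its gene reads in shCtrl and 2.54% in shNFKBIZ. For IL7 the difference was 0.47 (SE 0.181, adjusted P = 0.0398), the exon reads having changed less, and this call was lost in 5 of the 6 fits that left out a library, while that of CSF3 was kept in all 6. For IL24 the difference was -0.41 (SE 0.289, adjusted P = 0.312) and for IL15 it was 0.27 (SE 0.706, adjusted P = 0.81), so that no difference between both readouts was detected for these genes.

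**Figure D3:**
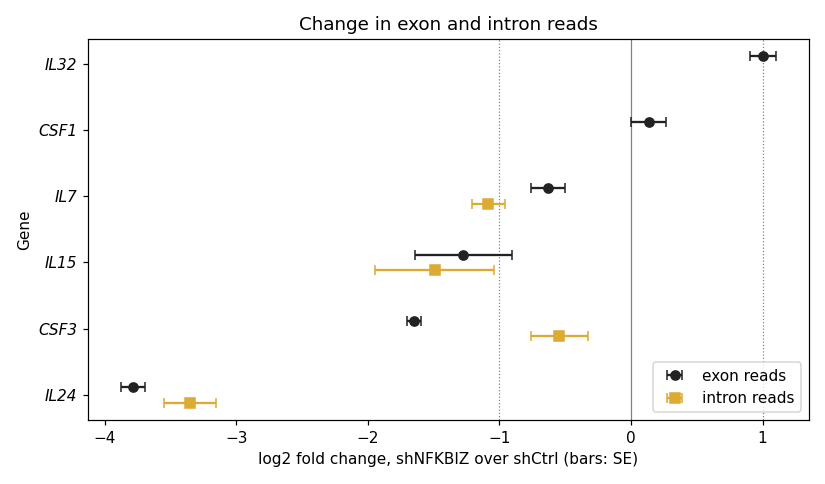
Log2 fold change of shNFKBIZ over shCtrl (horizontal axis, bars of 1 SE) in exon reads (circles) for the 6 tested members and in intron reads (squares) for the 4 with enough of them, with dotted lines at a fold change of 2. IL24 is far to the left in both, while CSF3 is at -1.65 in exons and -0.54 in introns.

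The receptors for these ligands were mostly near or under the detection limit. Of 15 receptor genes, 4 had no exon read (CSF2RB, IL20RA, IL23R and CRLF2), 9, those 4 included, had at most 3 summed exon reads, and CSF3R, the receptor of the most abundant ligand, had 1 exon read in all 6 libraries together. Only 3 passed the filter, none was past the threshold, and their median log2 fold change was -0.12. IL7R, the ligand-binding chain for IL7, was the best expressed at 7.84 ± 0.645 TPM in shCtrl and 7.62 ± 0.326 TPM in shNFKBIZ (SD, n = 3), a log2 difference of -0.12 with an SE of 0.083 and an adjusted P of 0.212 in edgeR, while its partner IL2RG had 3 reads in all. IL20RB, a chain of the IL24 receptor, was lower at 1.24 ± 0.127 against 0.697 ± 0.293 TPM (log2 difference -0.91, SE 0.333, adjusted P = 0.0212), short of the fold limit, and its adjusted P ranged up to 0.121 over the alternatives. Its fold passed that limit without shNFKBIZ library 3, where the log2 fold change was -1.31. IL20RB met the filter on low reads through its control libraries (21, 19 and 16 exon reads, against 7, 8 and 15 in shNFKBIZ). Both fits therefore favour a lower value of IL20RB in knockdown cells and are no support for that direction. IL22RA1, its possible partner, had 23 and 8 summed reads, IL15RA had 24 and 5, and CSF1R had 12 and 25, all too few for the exon fit. In intron reads CSF1R was tested and went the other way, from 173 to 93 summed reads. The log2 difference of -0.98 (SE 0.214, adjusted P = 0.000404 in edgeR) stayed short of the fold limit.

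Of 18 related ligands, 10 had no exon read, among them IL2, IL3, IL12B and IL27. Of the 4 tested, EBI3, which pairs with IL12A or IL27 in heterodimeric cytokines, rose from 4.35, 4.58 and 4.28 TPM to 15.2, 12.6 and 12.6 TPM (log2 difference 1.53, SE 0.167, adjusted P = 5.44e-08 in edgeR). IL12A stood at 1.4 ± 0.399 and 1.72 ± 0.128 TPM, and its log2 fold change of 0.22 had an adjusted P of 0.51. KITLG, the ligand of the KIT receptor of melanocytes, stood at 12.2 ± 1.08 and 12.7 ± 0.714 TPM, with an adjusted P of 0.749 in edgeR. The list's median log2 fold change was 0.10.

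Kinases and STAT factors downstream of these receptors formed a list of 7 genes, and none of the 5 tested was past the threshold. JAK1 was lower (log2 fold change -0.42, 41.9 ± 1.87 against 33.3 ± 0.373 TPM), as was STAT3 (-0.23, 68.9 ± 1.78 against 62 ± 0.51 TPM), while STAT5B was higher (0.42, 10.7 ± 0.182 against 15.2 ± 0.435 TPM), each past the adjusted P limit only. JAK2 and TYK2 gave no call, JAK3 had 12 and 4 summed reads, and STAT5A had 16 and 6. Of 6 genes known as STAT5 targets, 4 were tested and all 4 were lower by adjusted P, with a median log2 fold change of -0.62, beside the 32.8% of all tested genes that were lower by this limit. The other members of the list were too low to be tested, CISH with 18 and 24 summed reads and CCND2 with 9 and 0. PIM1, a survival kinase that other STAT factors and NF-κB also induce, was past the threshold with 20.8, 21.1 and 20.5 TPM in shCtrl and 10.3, 9.99 and 9.43 TPM in shNFKBIZ (log2 difference -1.15, SE 0.0812, adjusted P = 4.23e-11 in edgeR). BCL2L1, an inhibitor of apoptosis, went from 65 ± 1.7 to 44.7 ± 2.43 TPM (log2 fold change -0.62), PIM2 had a log2 fold change of -0.62, and SOCS2, a feedback inhibitor of cytokine receptors, one of -0.28.

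**Figure D4:**
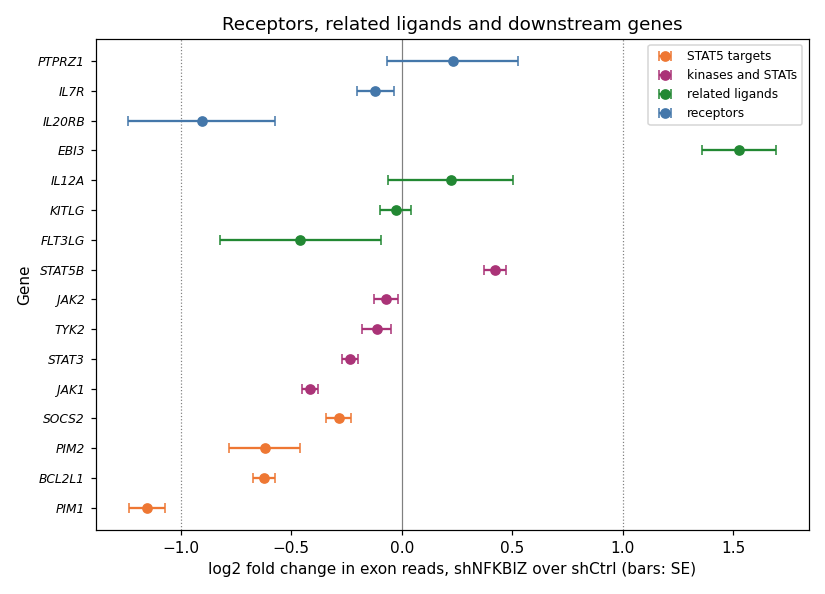
Log2 fold change in exon reads of shNFKBIZ over shCtrl (horizontal axis, bars of 1 SE) for the 16 tested genes among receptors, related ligands, kinases and STAT factors, and STAT5 targets, colored by list, with dotted lines at a fold change of 2. EBI3 at 1.53 and PIM1 at -1.15 are the points outside the dotted lines.

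The genes whose log2 CPM followed each member most closely over the 6 libraries were ranked by Pearson's r among 11106 genes. For CSF3 they were RPL22L1, PRC1 and DNAJC6, for IL24 they were USP32, SOD2 (the mitochondrial superoxide dismutase, known to be induced through NF-κB) and PLK2, and for IL32 they were SPATA22, CXXC1 and ALDH7A1, with r from 0.9991 to 0.9999. The 6 points form 2 groups, so that r mostly reflects the contrast between shCtrl and shNFKBIZ, and the ranking is a description without a test.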

How the data were processed

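RNA-seq libraries of 6 LOX-IMVI samples (3 shCtrl, 3 shNFKBIZ, grouped by their titles) were analyzed. The authors mapped reads to the human genome (GRCh38 per the labels) with CLC Genomics Workbench at default settings, with strand not used and broken pairs ignored, and deposited raw counts of exon, intron and junction-spanning reads per gene, one table per library. The deposited TPM values were recomputed from exon counts and the deposited exon lengths, and differed by at most 4.98e-07. Gene reads equalled exon plus intron reads in every row. Replicates of a group differed by more than sampling noise (the chi-square statistic over its degrees of freedom was 1.69 to 4.18 between pairs). The study's methods describe independent biological replicates, but the labels do not tie the libraries to separate cultures, and P values then measure only the spread between these samples.

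Exon and intron counts were tested over the whole table with edgeR 4.0.16 in R 4.3.3 (filterByExpr, TMM, robust quasi-likelihood test, two-sided, Benjamini-Hochberg adjustment over all genes tested). The threshold combined a fold change of at least 2 with an adjusted P limit of 0.05, after the study's methods (elsewhere the study gives a slightly wider P limit for this line). The further limit in the methods on the difference, which has no unit, was tried as a difference in mean TPM above 4. Exon against intron changes were tested as an interaction with libraries as blocks. Members without enough reads were given as ratios of summed reads with exact 95% intervals, which, like the floor of 3 reads, cover counting error only. An exact permutation test of 3 against 3 libraries cannot go below P = 0.1 and was not used. Scripts were tested on simulated counts. DESeq2 1.42.0, other scalings, filters, read classes and a replicate block were alternatives. Log2 CPM used a prior count of 2. Promoter windows came from RefSeq.

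The 10 members and the lists of receptors, related ligands, kinases, STAT targets and markers were chosen with earlier results of these data known, and 1 marker is not reported here. Named are all members and NFKBIZ. Each list gave its genes past the threshold with a mean of at least 10 reads, otherwise the 2 with the highest mean TPM. For members past the threshold with a mean of at least 50 reads, the 3 genes most like them are named. Overlapping and nearest tested genes are named for CSF3, IL24, IL32, IL7 and IL34 only, and for IL32 and IL7 not all of them. Receptors, kinases, STAT targets and markers named beyond this rule were chosen after their values were seen.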

Additional observations from a re-analysis of the deposited data

How the results depend on the processing

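The count of 4 members past the threshold in exon reads ranged from 3 to 5 over all alternatives, with CSF3 and IL24 called in each. IL15 was lost with DESeq2 and with 10 counts required in every library, where it was not tested, and also with a difference in mean TPM above 4 required in addition, which left 3 members, and IL32 stood at a log2 fold change of 0.9961 without a filter and 0.98 in total gene reads. With no filter, and without shCtrl library 1, 2 or 3 or shNFKBIZ library 3, IL34 was tested and called. In the fits that left out a library, IL34 passed the filter through its knockdown libraries alone. Those fits favour a higher value of IL34 in knockdown cells, and their calls are no support for that direction. Leaving out each library gave 3 to 5 members in exon reads, 2 to 3 in intron reads, 1 to 2 in the exon against intron test (an alternative chosen after seeing the data, as were its other scalings, which gave 2) and 2 to 3 genes of the pathway lists, with CSF1R added without shNFKBIZ library 2 and IL20RB without shNFKBIZ library 3. In these fits CSF1R passed the filter through its knockdown libraries alone and IL20RB through its control libraries alone. Neither call is support for its direction, and the intron reads of CSF1R were lower in knockdown cells. The pathway lists had 3 receptors, 4 related ligands, 5 kinases and STAT factors and 4 STAT5 targets tested. Of these, 2 genes were past the threshold, beside 8.96% of all genes tested, and 9 with no fold limit, beside 65.3%. With no filter on low reads, 5 list genes were past the threshold, with CCND2, IL15RA and IL22RA1 added at few reads each. The share of all genes called was not computed for this fit or for those that left out a library. These counts therefore have no share to be read beside. Of the 10 members, 8 were expressed at a limit of 0.5 TPM and 4 at a limit of 5 TPM. With library size as the only scaling, the median log2 fold change of all genes was 0.0937, and KITLG and JAK2 changed sign without a call.

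Deviations of same-numbered libraries from their group means had low correlations (0.0207, 0.0559 and 0.0288). Differently numbered libraries were not compared, so whether the numbers pair the samples was not tested. The fit with the replicate block gave 4 members in exon reads, 3 in intron reads and 2 list genes, the same counts and the same genes as without it. Depth limits CSF2, IL23A, IL34, TSLP and IL15, for which fewer than 20 reads per library were counted.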
